A study of Mus musculus with 12 samples.

Results

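The transcripts of 10 genes for antioxidant enzymes were followed in mouse oocytes with and without the RNA demethylase ALKBH5, across 3 stages of meiotic maturation. These were the 6 peroxiredoxin genes (*Prdx1* to *Prdx6*), the superoxide dismutase genes *Sod1* and *Sod2*, the glutathione peroxidase gene *Gpx4* and the thioredoxin gene *Txn1*. They were picked out by symbol from a table of 56691 genes, with earlier results of these data known, and each symbol matched 1 gene identifier. All 10 passed the filter on low counts in each comparison. The table held RNA-seq counts of 12 libraries, 2 for each genotype and stage, which the study describes as biological replicates. The oocytes were labelled GV (an intact germinal vesicle, before meiosis resumes), GVBD (breakdown of that nucleus) and MII (metaphase II, the arrest before fertilisation). WT oocytes and KO oocytes came from mice of C57BL/6 background, the KO oocytes from *Alkbh5*−/− mice, in which CRISPR-Cas9 had removed exon 1 with the start codon in every tissue. According to the methods, the females of both genotypes were 3 weeks old and primed with PMSG, and each library was a pool of denuded, zona-free oocytes sampled by time in M16 culture. The study describes most KO oocytes as failing to reach GVBD and few as releasing a polar body, so the libraries labelled KO GVBD and KO MII may hold oocytes at earlier stages. Genotype and stage reached cannot be told apart there.

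Peroxiredoxins reduce hydrogen peroxide and organic peroxides with a reactive cysteine, and thioredoxin reduces the typical peroxiredoxins again after each cycle. Superoxide dismutases turn superoxide into hydrogen peroxide, *Sod1* in the cytosol with copper and zinc and *Sod2* in the mitochondrial matrix with manganese. *Gpx4* encodes the selenoenzyme that reduces lipid peroxides in membranes and protects cells from ferroptosis. A fully grown oocyte is nearly silent in transcription and draws on stored maternal RNA, much of which is degraded between the GV and MII stages.

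The codons of the reactive residues are shown here for 5 of the genes. Each line gives coding bases on the sense strand of a GENCODE M21 transcript, with the codon of the reactive residue in capitals and codons counted from 1 at the start codon. For *Prdx1* it is codon 52 (GRCm38 chr4:116691808-116691843, plus strand), for *Prdx2* codon 51 (chr8:84970468-84970503, plus strand) and for *Prdx6* codon 47 (chr1:161247350-161247385, minus strand). For *Gpx4* it is codon 73 (chr10:80054722-80054757, plus strand), a TGA annotated as selenocysteine, and for *Txn1* codon 32 (chr4:57951812-57951847, minus strand). All 5 windows lie within 1 coding exon.
Prdx1: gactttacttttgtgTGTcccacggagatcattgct
Prdx2: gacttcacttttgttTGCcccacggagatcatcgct
Prdx6: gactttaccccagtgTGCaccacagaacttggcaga
Gpx4: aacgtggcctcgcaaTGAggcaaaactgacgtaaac
Txn1: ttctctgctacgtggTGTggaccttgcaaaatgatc
The windows of *Prdx1* and *Prdx2* share 32 of 36 bases, and those of *Prdx1* and *Prdx6* share 20. Over the aligned coding sequence *Prdx1* and *Prdx2* were 69.9% identical, and their longest shared run was 14 bases. Among all pairs of peroxiredoxin genes the longest shared run was 23 bases, between *Prdx2* and *Prdx4*.

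The libraries held between 28.6 and 40.2 times 1e6 counts, of which 221927 to 838409 fell on ERCC spike-in RNA. Values below are spike-in scaled counts: a gene's count multiplied by the mean spike-in total and divided by the library's own, so that they follow RNA per tube. In these bulk samples, fewer cells and less RNA per cell cannot be told apart. *Alkbh5* had between 5355 and 10181 counts in WT libraries and between 54 and 143 in KO libraries, and was lower in KO at each stage (adjusted p = 0.046 at GV, the largest of the 3). *Actb*, a cytoskeletal actin often used as a reference transcript, passed in none of the 9 comparisons (smallest adjusted p = 0.23). Oocyte markers summed to between 23547 and 40512 CPM (counts per 1e6 gene counts of a library), against 42.4 to 87.9 CPM for 12 granulosa and cumulus cell markers and 11.1 to 57.4 CPM for 5 white blood cell markers. The summed level of 5 red blood cell genes differed between libraries and groups. It was 2907 to 5518 CPM in 5 libraries (WT GV replicate 2, both WT GVBD and both KO GV libraries), 915 CPM in KO MII replicate 1 and at most 36.1 CPM in the other 6. In the same 5 libraries the white blood cell sum was 41.1 to 57.4 CPM, against 11.1 to 18.9 CPM in the rest. On both sums the WT GVBD libraries were above the KO GVBD libraries, and KO GV above KO GVBD, without overlap. The KO MII libraries also stood apart from each other on some members. The higher library exceeded the lower by 7.15-fold for *Prdx3* and 5.20-fold for *Gpx4*, against 1.40- and 1.41-fold between the WT MII libraries. *Prdx2*, *Prdx5*, *Sod1* and *Txn1* also differed more between the KO MII libraries. The KO MII libraries differed less than the WT MII libraries for *Prdx1* (1.25- against 1.63-fold) and *Prdx4* (2.23- against 4.96-fold). The same held for *Prdx6* (1.75- against 2.34-fold) and *Sod2* (1.27- against 1.28-fold).

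**Figure D1:**
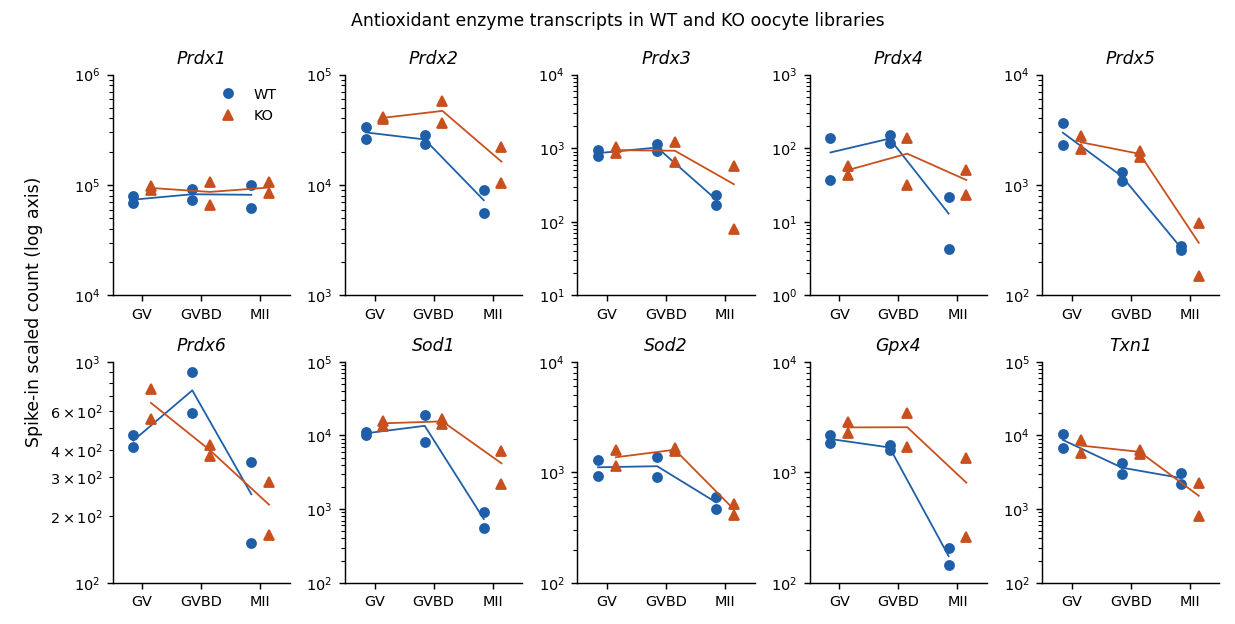
Spike-in scaled counts (log axes, a range of its own in each panel) of the 10 genes at the 3 stages; points are libraries (circles WT, triangles KO) and lines join the means of 2 libraries. In WT, *Prdx1* stays between 61975 and 101033 at all stages, whereas *Sod1* is at 8190 or more at GV and GVBD and at 916 or less at MII. At MII the KO triangles lie farther apart than the WT circles for *Prdx2*, *Prdx3*, *Prdx5*, *Sod1*, *Gpx4* and *Txn1*. They lie closer together than the WT circles for *Prdx1*, *Prdx4*, *Prdx6* and, by little, *Sod2*.

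Compared per length, *Prdx1* was the most abundant of the 10 transcripts in every group. Levels per kilobase of merged exons in WT GV, given as mean ± SD of 2 libraries, were 24209 ± 2381 for *Prdx1*, 9816 ± 1813 for *Prdx2*, 8273 ± 2482 for *Txn1* and 2692 ± 188 for *Sod1*. They were 1390 ± 431 for *Prdx5*, 1161 ± 141 for *Gpx4* and 579 ± 73.1 for *Prdx3*. *Sod2* (111 ± 26.1), *Prdx6* (91.6 ± 8.32) and *Prdx4* (41.5 ± 34.1) were the lowest. Of these neighbours, *Prdx2* and *Txn1*, *Prdx5* and *Gpx4*, and *Sod2* and *Prdx6* overlapped between libraries. Per kilobase of 1 reference transcript the order was the same except that *Sod1* (16673 ± 1161) came before *Txn1* (8273 ± 2482).

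In WT oocytes, 7 of the 10 genes were lower at MII than at GV, and *Prdx1* was not among them. *Sod1*, *Gpx4* and *Prdx5* fell most, by 14.6-, 11.4- and 11.0-fold. *Prdx2*, *Prdx3*, *Prdx4* and *Txn1* fell by between 3.29- and 6.83-fold. A gene was counted as changed when its p, adjusted over all genes tested, was under 0.05 and its change at least 2-fold. By this rule 30.9% of the 18816 genes tested changed in the same comparison, and 30.5% were lower at MII. The median log2 fold change was −2.07 over the 10 members and −1.06 over all genes tested. By edgeR 8 members had an unadjusted p under 0.05 (39.1% of all genes), and DESeq2 called 8 members and 26.6% of its genes. Both MII libraries were below both GV libraries for 9 members and for 58% of all genes.

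Of the closely related cytosolic peroxiredoxins *Prdx1* and *Prdx2*, the latter fell and *Prdx1* did not pass the test. *Prdx1* (ENSMUSG00000028691, chr4:116685544-116700822) had 78790 and 68544 scaled counts at WT GV and 101033 and 61975 at WT MII. The MII values lay on either side of the GV values, and the log2 fold change was 0.15 ± 0.41 (SE; adjusted p = 0.85). *Prdx2* (ENSMUSG00000005161, chr8:84969587-84974834) had 33848 and 26029 at GV and 9031 and 5534 at MII. Both MII libraries were under both GV libraries, with a log2 fold change of −2.04 ± 0.46 (adjusted p = 9.5e-05). The red blood cell, which is rich in *Prdx2*, gave 12.5 and 5518 CPM of its genes in the GV libraries and 7.19 and 36.1 in the MII libraries. *Prdx2* was the higher in the GV library with the lower red blood cell sum, and the part of red blood cell RNA in its values was not tested.

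Among the other peroxiredoxins, *Prdx5*, found in mitochondria, peroxisomes and cytosol, had the lowest log2 fold change. It had 3625 and 2321 scaled counts at GV and 257 and 283 at MII. The groups were far apart (log2 fold change −3.46 ± 0.54, adjusted p = 3.4e-09). The mitochondrial *Prdx3* had 933 and 780 at GV and 234 and 167 at MII, again without overlap (−2.10 ± 0.55, adjusted p = 8.1e-04). *Prdx4*, of the endoplasmic reticulum, was scarce: its 31 and 98 raw counts at GV and 27 and 9 at MII gave 36.8 and 138 scaled counts against 21.5 and 4.34. Its GV libraries differed 3.76-fold from each other (−2.77 ± 0.95, adjusted p = 0.0138). *Prdx6*, a mainly cytosolic enzyme that also has phospholipase activity, had 412 and 468 at GV and 353 and 151 at MII. Both MII values were lower, but the change did not pass (−0.81 ± 0.55, adjusted p = 0.288).

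Of the superoxide dismutase genes, *Sod1* fell and *Sod2* did not pass the test by edgeR. *Sod1* (ENSMUSG00000022982, chr16:90220754-90226329) had 10161 and 11214 scaled counts at GV and 916 and 552 at MII. This was the lowest log2 fold change of the 10 genes, −3.87 ± 0.53 (adjusted p = 9.7e-12). *Sod2* had 925 and 1295 at GV and 600 and 468 at MII. No MII library reached a GV library, yet the change of −1.06 ± 0.51 did not pass by edgeR (adjusted p = 0.103) and was the size of the median gene. DESeq2 called it (−1.06, adjusted p = 0.043).

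*Gpx4* (ENSMUSG00000075706, chr10:80047166-80056439) had 2174 and 1829 scaled counts at GV and 145 and 204 at MII. The log2 fold change was −3.51 ± 0.55 (adjusted p = 4.3e-09). *Txn1* had 10540 and 6851 at GV and 3084 and 2197 at MII (−1.72 ± 0.48, adjusted p = 0.0021). For both genes the MII libraries lay below the GV libraries.

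*Sod1*, *Gpx4* and *Prdx5* passed in each of the 11 fits made of this comparison, including those that left out 1 library. *Prdx2* passed in 9 of these fits, *Prdx3* in 8, *Txn1* in 6 and *Prdx4* in 4. Without WT GV replicate 1 the members passing were 4 (*Prdx4*, *Prdx5*, *Sod1* and *Gpx4*), where 14.4% of all genes passed, and without WT GV replicate 2 they were 3, where 14.3% did. Without WT MII replicate 2, *Prdx4* (adjusted p = 0.308) and *Txn1* (adjusted p = 0.0656) did not pass. Without WT MII replicate 1, *Prdx4* did not pass (adjusted p = 0.0795) and *Prdx6* did (−1.54, adjusted p = 0.0425).

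The reading of *Prdx1* depended on the scaling. Scaled to the spike-in, 74 of the 5821 genes that changed in WT were higher at MII. With TMM scaling, which sets the libraries to an equal typical gene, 1329 of 4522 were higher and the median log2 fold change moved from −1.06 to −0.22. With median-of-ratios scaling 1871 of 4825 were higher, the median was −0.08, and *Prdx1* passed as higher at MII (1.11, adjusted p = 0.0127). Under that scaling *Txn1* did not pass (−0.74, adjusted p = 0.108), and *Prdx6* was at 0.11.

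**Figure D2:**
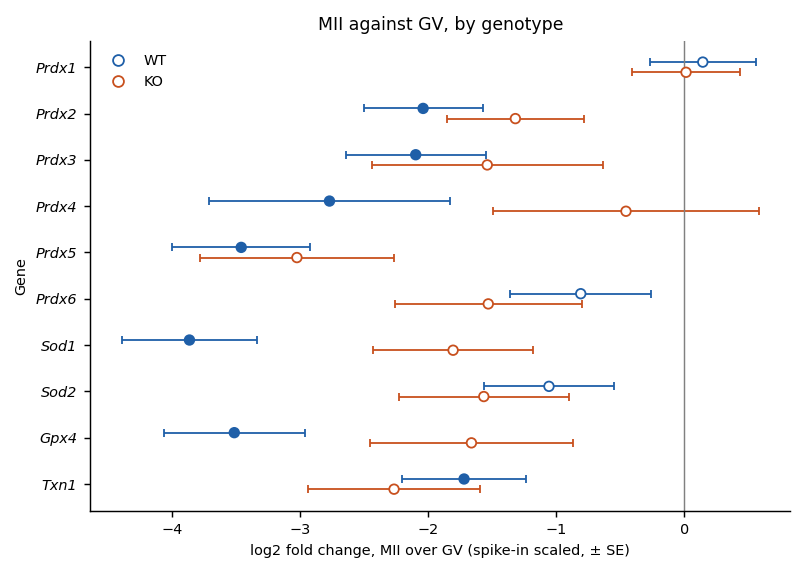
Log2 fold change of MII over GV (spike-in scaled, x axis) for each gene, blue for WT and orange for KO, with bars of 1 SE; filled points passed the test. The 7 filled points are all WT and run from −1.72 for *Txn1* to −3.87 for *Sod1*, while *Prdx1* lies at 0.15 and 0.01.

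Shares within a library do not depend on the scaling. *Prdx1* held 55.7% and 57.4% of the counts of the 10 genes in the WT GV libraries. The share was 61.5% and 64.5% for WT GVBD, then 87.3% and 86.6% for WT MII. In KO its share in the GV libraries was 56.3% and 57.99%, in the GVBD libraries 55.0% and 50.8%, and in the MII libraries 75.7% and 85.4%. Both MII groups were above all GV and GVBD libraries, and both KO MII libraries were below both WT MII libraries. The 95% Wilson intervals of these shares, at most 0.333 percentage points to either side, treat counts as independent draws. Counts without molecular identifiers are not independent molecules, so the intervals can be too narrow even for counting error. They leave out differences between libraries. *Prdx1* exceeded *Sod1* by 7.75- and 6.11-fold in raw counts at WT GV and by 110- and 112-fold at WT MII. At KO MII it exceeded *Sod1* by 17.1- and 38.3-fold. With 2 libraries against 2, no exact permutation test on such a ratio can pass, so these are descriptions.

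**Figure D3:**
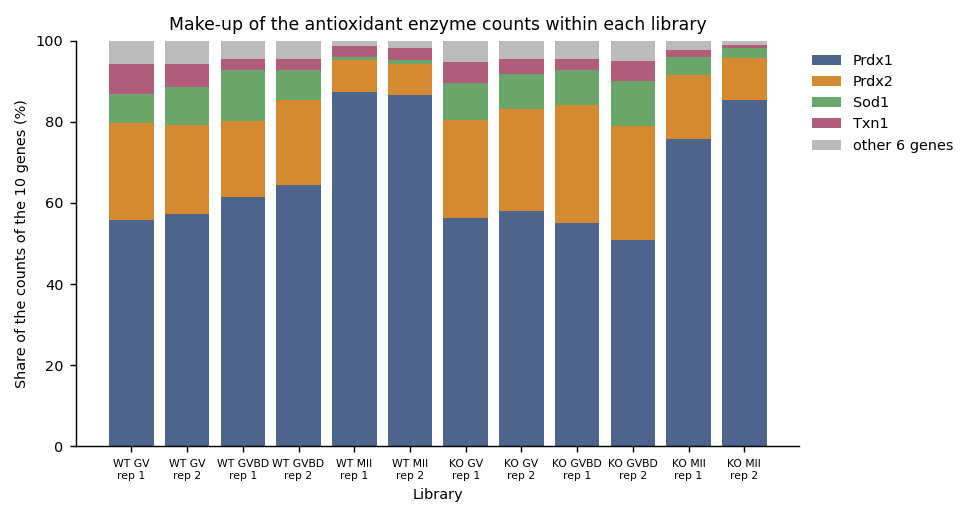
Share (%) of the summed counts of the 10 genes that fell on *Prdx1*, *Prdx2*, *Sod1*, *Txn1* and the other 6 genes, 1 bar per library. *Prdx1* takes 50.8% to 64.5% in GV and GVBD libraries and 75.7% to 87.3% in MII libraries.

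In KO oocytes none of the 10 genes passed by edgeR between GV and MII (0 of 10), where 3.28% of the 18777 genes tested did. All but 1 of the 616 genes that changed were lower. The median log2 fold change was −1.55 over the members and −1.17 over all genes tested, and by edgeR 5 members had an unadjusted p under 0.05 (24.6% of all genes). DESeq2 called 3 members and 16.1% of its genes. *Prdx5* had 2749 and 2134 scaled counts at KO GV and 450 and 150 at KO MII (−3.03 ± 0.75, adjusted p = 0.0549 by edgeR). It passed in 8 of the 11 fits of this comparison, including all 6 that changed the scaling, filter, tool or model (adjusted p = 0.000541 by DESeq2 and 0.0384 with TMM scaling). *Txn1* had 8768 and 5834 at GV and 2235 and 800 at MII (−2.27 ± 0.67, adjusted p = 0.0794). Both genes had their MII libraries below their GV libraries, as did 6 other members and 61.4% of all genes, while *Prdx1* and *Prdx4* overlapped.

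*Sod1* had 15816 and 13463 scaled counts at KO GV and 6180 and 2198 at KO MII (−1.81 ± 0.63, adjusted p = 0.117). *Gpx4* had 2848 and 2252 at GV and 1352 and 260 at MII (−1.66 ± 0.80, adjusted p = 0.227). *Prdx3* had 1023 and 857 at GV and 568 and 79.5 at MII (−1.54 ± 0.90, adjusted p = 0.316). In each case KO MII replicate 1 held the higher value, and replicate 2 lay near or under the WT MII libraries for *Gpx4* and *Prdx3*. *Prdx1* was level, with 96970 and 90905 at GV and 105582 and 84249 at MII (0.01 ± 0.42, adjusted p = 0.988).

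These results rested on the KO MII libraries. Without KO MII replicate 1, 54.2% of all genes passed, and 8 members did, all lower, among them *Gpx4* (−3.29, adjusted p = 4.2e-07) and *Sod1* (−2.74, adjusted p = 1.6e-07). Without KO MII replicate 2, 16.9% of all genes passed, and 4 members: *Prdx5* (−2.44), *Sod1* (−1.24), *Sod2* (−1.40) and *Txn1* (−1.71). With TMM scaling 1 member (*Prdx5*) passed, as did 4.83% of all genes, and 217 of those 906 genes were higher at MII.

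Whether the genotypes differ in the change from GV to MII was tested as an interaction over 8 libraries. No gene of the 20807 tested passed (0%) by edgeR, 1197 (5.75%) had an unadjusted p under 0.05, and DESeq2 called 182 genes, none of them members. The same holds for the members: 0 of 10 passed, and 1 had an unadjusted p under 0.05. That gene was *Sod1*, whose log2 change was less negative in KO by 2.06 ± 0.75 (adjusted p = 0.66). The estimates for *Gpx4* (1.85 ± 0.93, adjusted p = 0.935) and *Prdx4* (2.31 ± 1.48, adjusted p = 1) had the same sign, and that for *Prdx1* was −0.13 ± 0.54. Of the 10 member estimates 6 were above 0 and 4 below, with a median of 0.50 beside −0.07 for all genes tested. *Sod1* passed with TMM (2.02, adjusted p = 0.0439) or median-of-ratios scaling (2.07, adjusted p = 0.0285). Without KO MII replicate 2 the estimates were 2.62 for *Sod1* and 2.60 for *Gpx4*, where the median of all genes tested was 0.31. Without KO MII replicate 1 they were 1.13 and 0.22, where that median was −0.84.

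KO and WT were then compared within stages. At MII, 0 of the 10 genes passed by edgeR, where 0.803% of 17566 genes did, 2 had an unadjusted p under 0.05 (7.32% of all genes) and DESeq2 called 1. Both KO libraries were above both WT libraries for 4 members, *Prdx2*, *Prdx4*, *Sod1* and *Gpx4*, and below for none, against 22.1% and 10.3% of all genes tested. The *Sod1* values of 6180 and 2198 in KO stood against 916 and 552 in WT (log2 fold change 2.51 ± 0.84, adjusted p = 0.159). The adjusted p was 0.0271 by DESeq2 and 0.0488 in 1 model of all 12 libraries. Leaving out KO MII replicate 1 gave 1.58 (adjusted p = 0.608), and leaving out replicate 2 gave 3.07 (adjusted p = 0.0807).

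*Gpx4* at MII had 1352 and 260 scaled counts in KO and 145 and 204 in WT (2.20 ± 0.92, adjusted p = 0.382). The lower KO library was close to the WT range, and without KO MII replicate 1 the estimate was 0.57. *Prdx2* had 22223 and 10320 in KO against 9031 and 5534 in WT (1.16 ± 0.71, adjusted p = 0.898). *Prdx4* had 51.0 and 22.9 against 21.5 and 4.34, from at most 51 raw counts (1.52 ± 1.30). *Txn1* had 2235 and 800 in KO against 3084 and 2197 in WT (−0.80 ± 0.81). The red blood cell genes stood at 915 and 1.23 CPM in KO MII and at 7.19 and 36.1 CPM in WT MII, and their part in the *Prdx2* value was not tested.

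At GV, 0 members passed by edgeR and 0.0977% of 19452 genes did, 1 member had an unadjusted p under 0.05 (17.9% of all genes) and DESeq2 called 0. The log2 fold changes of the members ran from −0.78 for *Prdx4* to 0.57 for *Prdx6*, with a median of 0.32 beside 0.36 for all genes tested. TMM scaling took the median of all genes to 0.02. Both KO libraries exceeded both WT libraries for 5 members (*Prdx1*, *Prdx2*, *Prdx6*, *Sod1* and *Gpx4*, the last at −0.0085 with median-of-ratios scaling), and 42.2% of all genes tested lay so, while 9.69% lay below and no member did. *Sod1* was the member with an unadjusted p under the threshold, with 15816 and 13463 in KO and 10161 and 11214 in WT (0.45 ± 0.17, adjusted p = 0.25).

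At GVBD, 0 members passed by edgeR and 2.54% of 19462 genes did, 0 members had an unadjusted p under 0.05 (14.9% of all genes) and DESeq2 called 0. *Prdx2*, *Prdx5*, *Sod2* and *Txn1* were higher in both KO libraries than in both WT libraries (30.3% of all genes) and *Prdx6* was lower (17.9%). *Prdx2* had 57121 and 36614 in KO against 28164 and 23518 in WT (0.86 ± 0.50, adjusted p = 0.444). The KO libraries held 4.31 and 7.45 CPM of red blood cell genes and the WT libraries 3187 and 2907, and their part in the *Prdx2* value was not tested. *Prdx6* had 375 and 421 in KO against 898 and 587 in WT (−0.90 ± 0.56, adjusted p = 0.483).

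**Figure D4:**
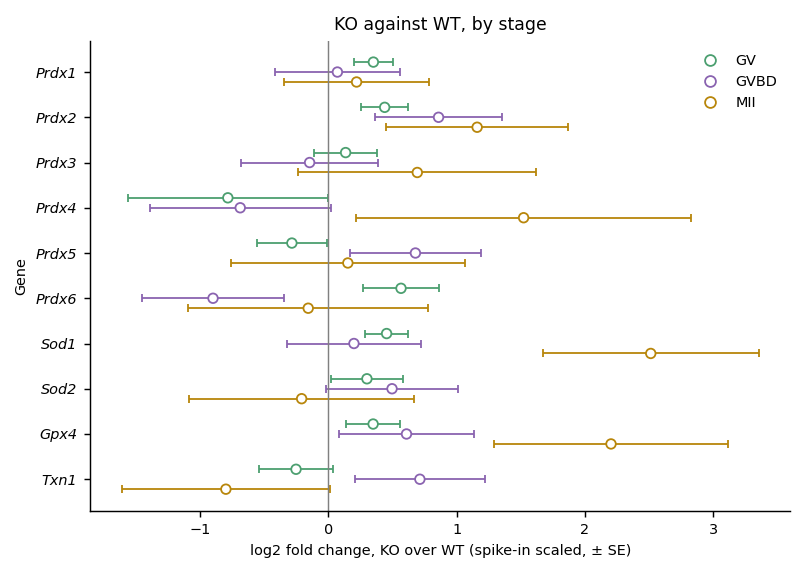
Log2 fold change of KO over WT (spike-in scaled, x axis) for each gene, coloured by stage, with bars of 1 SE; open points did not pass, and no point is filled. *Sod1* and *Gpx4* lie at 2.51 and 2.20 at MII, with wide bars, and between 0.20 and 0.61 at GV and GVBD.

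When the 3 stages were fitted together, with a term for stage, 0 members passed by edgeR and 1.26% of 22004 genes did, 3 members had an unadjusted p under 0.05 (18.8% of all genes) and DESeq2 called 0. *Prdx2* had the lowest p (log2 fold change 0.82 ± 0.26, adjusted p = 0.119). It was higher in both KO libraries than in both WT libraries at each of the 3 stages, on the spike-in scale and in CPM. Taken singly, 42.2% of all genes tested had both KO libraries above both WT libraries for GV, 30.3% for GVBD and 22.1% for MII. The share of all genes with this order at every stage was not computed, so it cannot be said whether *Prdx2* stands out by it. *Gpx4* (1.04 ± 0.41, adjusted p = 0.194) and *Sod1* (1.02 ± 0.41, adjusted p = 0.203) followed, and *Prdx1* was at 0.21 ± 0.22 (adjusted p = 0.634). The median of the members was 0.21 and that of all genes tested 0.29. With no filter on low counts, *Sod1* (adjusted p = 0.0265) and *Gpx4* (adjusted p = 0.0329) passed.

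**Figure D5:**
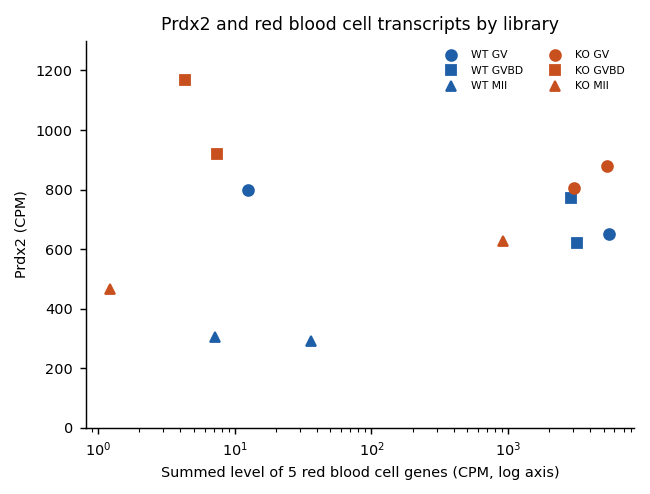
*Prdx2* (CPM, y axis from 0) against the summed level of 5 red blood cell genes (CPM, log axis) in the 12 libraries, with colour for genotype and shape for stage. The highest *Prdx2* level, 1169 CPM in KO GVBD replicate 1, goes with 4.31 CPM of red blood cell genes, and both WT MII libraries are at or below 305 CPM. The part of red blood cell RNA in the *Prdx2* level was not tested.

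Between GV and GVBD no member passed in either genotype (0 of 10 in each), where 0.0511% of 19566 genes did in WT and 0.22% of 19064 in KO. By edgeR 2 members had an unadjusted p under 0.05 in WT (6.25% of all genes) and 0 in KO (7.65%), and DESeq2 called 0 in each. In WT, *Prdx5* had 3625 and 2321 scaled counts at GV and 1310 and 1080 at GVBD (−1.31 ± 0.40, adjusted p = 0.454). *Txn1* had 10540 and 6851 at GV and 4294 and 3015 at GVBD (−1.25 ± 0.40, adjusted p = 0.496). In WT both of these genes and *Gpx4* had their GVBD libraries below their GV libraries, and *Prdx6* had them above. In KO the estimates were −0.35 ± 0.28 for *Prdx5* and −0.29 ± 0.29 for *Txn1*. There *Prdx5* and *Prdx6* had their GVBD libraries below their GV libraries, while *Txn1* and *Gpx4* overlapped. The share of all genes without overlap between GV and GVBD was not computed. *Sod1* had 18861 and 8190 at WT GVBD, on either side of its GV values, and 16578 and 14478 at KO GVBD.

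The wider antioxidant system, 32 further genes, held 14 genes that were lower at MII than at GV in WT and none that was higher, where 30.5% of all genes tested were lower. The median log2 fold change was −1.54 over the list and −1.06 over all genes tested. Of the thioredoxin and glutaredoxin system 7 of 10 genes fell, among them *Glrx2* (−4.52 ± 0.94) and *Glrx5* (−4.29 ± 0.56), mitochondrial glutaredoxins, the latter of iron-sulfur cluster assembly. *Ccs*, the copper chaperone that loads SOD1, fell by 3.61 ± 0.60 on the log2 scale. It had 809 and 659 scaled counts at WT GV and 64.6 and 55.4 at WT MII. *Gpx7*, a peroxidase of the endoplasmic reticulum, fell by 3.58 ± 1.17, from 40 and 43 raw counts at WT GV to 9 and 4 at WT MII. *Glrx2* also rests on few raw counts, 106 and 94 at WT GV and 12 and 4 at WT MII. Of the other glutathione peroxidases 2 of 4 fell, of the methionine sulfoxide reductases 2 of 4, of the stress response genes 2 of 5, and of glutathione synthesis and recycling 0 of 6.

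In KO, 2 of the 32 genes were lower at MII than at GV, where 3.28% of all genes passed: *Cat*, which encodes catalase (−4.06 ± 0.79, adjusted p = 0.0369), and *Hmox2*, the constitutive heme oxygenase (−2.68 ± 0.61, adjusted p = 0.0469). *Cat* was also lower at KO GVBD than at KO GV (−2.95 ± 0.43, adjusted p = 0.04997). Its KO GV libraries held 945 and 716 scaled counts, its KO GVBD libraries 132 and 83.7, and its KO MII libraries 43.0 and 55.9. The red blood cell, which is rich in catalase, gave 3055 and 5307 CPM of its genes at KO GV against 4.31 and 7.45 at KO GVBD. White blood cell sums were 57.4 and 49.9 CPM at KO GV against 11.8 and 13.2 at KO GVBD. The part of either cell type in the *Cat* value was not tested. *Srxn1*, which restores overoxidised peroxiredoxins, was the 1 gene of the list that differed between genotypes within a stage, where 2.54% of all genes passed at GVBD. At GVBD it had 6.58 and 8.81 scaled counts in KO and 145 and 146 in WT (−4.20 ± 0.81, adjusted p = 0.00603). The red blood cell sums of those WT libraries, 3187 and 2907 CPM, were again the higher. So were their white blood cell sums, 56.7 and 43.5 CPM against 11.8 and 13.2 in KO. The part of either cell type was not tested. In WT GV *Srxn1* had 0 counts in replicate 1 and 103 in replicate 2, with red blood cell sums of 12.5 and 5518 CPM. In KO GV the order was the other way, with 124 and 50 counts at red blood cell sums of 3055 and 5307 CPM.

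Several members share sequence with other genes. Of 75-base windows of the *Gpx4* reference transcript, 62.4% had an exact copy in a transcript of another gene, mainly the pseudogene *Gpx4-ps2*. That pseudogene had 85 to 646 raw counts, against 182 to 2076 for *Gpx4*, and was lower at MII than at GV in WT too (−2.39 ± 0.61). The other listed copies, *Prdx6-ps2*, *Prdx6b* and *Txn-ps1*, had at most 3.37 CPM in any library. Since only uniquely mapped reads were kept, the level of *Gpx4* is uncertain. The study's methods describe paired reads longer than these windows, so the shares given here are not shares of reads, which were not measured. For *Prdx5* the share was 28.2% and came from *Trmt112*, which overlaps 409 of its 2139 exon bases on the opposite strand. *Prdx2* shared 17.1% of its windows, and *Junb* and *Rnaseh2a* overlap its exons on the opposite strand. The use of strand in counting was not given in the sources used here, so reads of these pairs cannot be told apart. *Prdx1* (15.6%) and *Sod1* (12.2%) had copies in predicted genes, *Sod2* in 0.5% of windows, and *Prdx3*, *Prdx4*, *Prdx6* and *Txn1* in none.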

How the data were processed

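Mouse oocyte RNA was sequenced by the study with ERCC spike-in added to each tube before reverse transcription of polyadenylated RNA, and the cDNA was amplified by a SMART-seq type protocol. The sample labels describe another, bulk preparation, so the protocol is not settled. Reads were trimmed by the authors with Cutadapt (1.9 in the submitters' notes), aligned with Hisat2 (2.0.4) to GRCm38 with ERCC sequences, kept uniquely mapped reads and used StringTie (1.3.4d). The deposited values are unnormalised counts per gene for 12 libraries. The counting step, annotation release and strand setting were not given in the sources used here. Without molecular identifiers, counts are not independent molecules.

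Symbols came from a table of Ensembl identifiers (52073 of 56691 genes matched, 91.85%), and positions and merged exons from GENCODE M21. ERCC totals set the relative library sizes. Each comparison was fitted with edgeR 4.0.16 (filterByExpr, glmQLFit, glmQLFTest, R 4.3.3) on the groups it names, two-sided, with Benjamini-Hochberg adjustment over all genes tested. The threshold was an adjusted p of 0.05 with an absolute log2 fold change of 1. SEs were derived from the F statistic. CPM are counts per 1e6 gene counts of a library, spike-in excluded. The code was tested on simulated data. Alternatives were TMM and median-of-ratios scaling, no filter on low counts, the DESeq2 1.42.0 Wald test, a replicate block, 1 model of all 12 libraries and leaving out each library.

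All 10 members were to be described. Of the 32 further genes, up to 4 passing genes with the largest change were named per comparison. The members and lists were chosen with earlier results of these data known.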

Additional observations from a re-analysis of the deposited data

Results flagged for a closer look

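*Prdx6* was picked out because its libraries moved in opposite directions in the 2 genotypes without overlap. Its log2 fold change from GV to GVBD was 0.75 in WT, where both GVBD libraries (898 and 587 scaled counts) exceeded both GV libraries (412 and 468). In KO it was −0.71, where both GVBD libraries (375 and 421) were below both GV libraries (754 and 550). Seen by stage, KO against WT was 0.57 at GV and −0.90 at GVBD. None of these 4 changes passed on its own, and the difference between them was not tested. Both KO libraries lay above both WT libraries for 42.2% of all genes at GV, and below for 17.9% at GVBD. The share of all genes with such opposite moves was not computed. In CPM the order of the 4 groups was the same. With 2 libraries a group, no library could be tested for standing apart from its own group.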

How the results depend on the processing

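Of 90 member fold changes, 550 fits under another setting gave the same direction and side of the threshold in 494, lost a call in 7, gained 1 in 22 and turned the direction in 27. Of 480 fits without 1 library these numbers were 403, 10, 15 and 52. No change that turned had passed (smallest adjusted p = 0.288, largest absolute log2 fold change 0.81), and the cause of the turns was not tested. The members passing between GV and MII in WT ranged from 3 to 7 without 1 library, in KO from 0 to 8, and in the genotype difference from 0 to 2. In each range, the fit with the most members passing was also the fit with the largest share of all genes passing. In KO between GV and MII, 1 member passed with TMM (4.83% of all genes) and 1 with median-of-ratios scaling (4.95%). With no filter on low counts 3 passed (9.32%), by DESeq2 3 (16.1%), with the replicate block 2 (13.1%) and with all 12 libraries in 1 model 4 (13.3%). KO against WT at MII gave 1 by DESeq2 (2.04% of all genes) and 1 with all 12 libraries in 1 model (0.995%). The genotype difference gave 1 with TMM (0.332%) and 1 with median-of-ratios scaling (0.529%), and the fit of the 3 stages together 2 with no filter (3.57%). Between GV and MII in WT the block gave 6 members (26.4% of all genes).

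Replicate numbers in the titles name libraries and nothing ties equal numbers to a shared day or litter. Deviations of equal numbers correlated at −0.211 (GV), 0.111 (GVBD) and −0.141 (MII) between genotypes. The replicate block called 0 members in each KO against WT comparison and took all genes called from 19 to 0 at GV, from 494 to 214 at GVBD and from 141 to 4 at MII. Crossed numbers, added after the data were seen, gave 218 at GV and 0 at MII, with 0 members.

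Directions turned as follows, with TMM first and median-of-ratios second. KO against WT at GV gave −0.20 and −0.22 for *Prdx3*, −0.045 and −0.061 for *Sod2*, and −0.0085 for *Gpx4* with the latter only. At GVBD *Prdx1* was at −0.24 and −0.23, and at MII *Prdx5* at −0.34 and −0.35, with −0.052 under the block and −0.052 under crossed numbers. Over all stages the values were −0.024 and −0.040 for *Prdx1*, −0.16 and −0.19 for *Prdx3*, −0.16 and −0.18 for *Prdx5*, and −0.046 and −0.061 for *Sod2*. For MII against GV, *Prdx6* in WT was at 0.11 (median-of-ratios) and *Prdx4* in KO at 0.54 and 0.56. For GVBD against GV in KO, *Prdx3* was at 0.070 and 0.074, and *Gpx4* at −0.070 under the block. The genotype difference of *Prdx1* was 0.027 and 0.10.

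Without 1 library, log2 fold changes that turned ranged as follows. KO against WT at GV: *Prdx4* −1.44 to 0.46, *Prdx5* −0.57 to 0.073, *Txn1* −0.58 to 0.092. At GVBD: *Prdx1* −0.32 to 0.38, *Prdx3* −0.67 to 0.24, *Prdx4* −2.07 to 0.018, *Sod1* −0.28 to 0.92. At MII: *Prdx1* −0.090 to 0.61, *Prdx3* −1.33 to 1.51, *Prdx5* −0.85 to 0.74, *Prdx6* −0.64 to 0.58. Over all stages: *Prdx3* −0.30 to 0.40, *Prdx4* −0.41 to 0.41, *Prdx5* −0.046 to 0.34, *Prdx6* −0.30 to 0.018, *Txn1* −0.29 to 0.11. MII against GV: *Prdx1* −0.25 to 0.46 in WT and −0.16 to 0.17 in KO, *Prdx4* −1.14 to 0.011 in KO. GVBD against GV in WT: *Prdx1* −0.024 to 0.33, *Prdx4* −0.036 to 1.87, *Sod1* −0.38 to 0.82, *Sod2* −0.29 to 0.30. In KO: *Prdx1* −0.51 to 0.19, *Prdx2* −0.15 to 0.49, *Prdx3* −0.55 to 0.36, *Prdx4* −0.66 to 1.43, *Sod1* −0.026 to 0.21, *Sod2* −0.0044 to 0.50, *Gpx4* −0.58 to 0.42, *Txn1* −0.55 to 0.038. Genotype difference: *Prdx1* −0.44 to 0.26, *Prdx3* −1.46 to 1.37, *Prdx5* −0.57 to 1.02, *Prdx6* −1.21 to 0.013, *Txn1* −1.47 to 0.012. A group left with 1 library was assumed to vary like the others.

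The limits are the 2 libraries a group, the distance between the KO MII libraries and the unknown stage of KO oocytes. Another is red blood cell RNA in 6 of the libraries, with higher white blood cell sums in some of them. *Prdx4* rests on 9 to 132 counts a library.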
